A study of Mus musculus with 225 samples.

Results

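*Wnt5a*, 5 Wnt receptors (*Ror2*, *Ryk*, *Fzd1*, *Fzd2* and *Fzd7*) and 4 secreted Wnt antagonists (*Sfrp1*, *Sfrp2*, *Frzb* and *Dkk2*) were followed in single cells of the mouse forelimb. The rule names the 10 genes by their roles and uses no measured value, although it was written with earlier results of these data known, and each gene is 1 row of the 23165 genes counted and 1 of the 10948 genes in the normalized table. The cells came at E12.5 from the autopod, the future hand with its digits, and from the zeugopod, the future forearm. Embryos of both groups were *Hoxd11::GFP* heterozygotes on a mixed C57Bl6CBAF1 background, in which a tau-GFP knock-in fused to the *Hoxd11* coding sequence takes the place of the normal product of that allele. Forelimbs of several embryos were pooled, dissociated with collagenase, sorted for the 20% of cells with the brightest GFP and captured on a Fluidigm C1 chip, so cells without *Hoxd11* activity are mostly missing and no label ties a cell to an embryo. Each tissue was therefore 1 pooled sample, and no p-value or standard error was computed from cells.

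Wnt proteins are secreted ligands. Those of the canonical branch bind a Frizzled receptor together with Lrp5 or Lrp6 and stabilize β-catenin, whereas Wnt5a acts mostly through the non-canonical, planar cell polarity branch, in which the tyrosine kinase-like receptors Ror2 and Ryk take part. In the limb bud *Wnt5a* is known for its high expression in distal mesenchyme and for its need in outgrowth and in the elongation of cartilage elements. Sfrp proteins and Frzb carry a Frizzled-like domain and bind Wnt ligands outside the cell, whereas Dkk2 binds the Lrp5 and Lrp6 co-receptors.

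The authors retained 199 of 225 cells and left out 20 autopod and 6 zeugopod cells. The 76 autopod cells kept were 59 of run NXT0072 and 17 of NXT0143, and the zeugopod cells kept were 58 of NXT0142 and 65 of NXT0143, so that 1 run held both tissues. The shallowest retained cell had 186271 reads on genes and the deepest 9437447, and between 1801 and 6162 genes had at least 1 read. The median cell had 2830020 reads in the autopod and 3233740 in the zeugopod. In the autopod 70 of 76 cells had at least 5 reads of *Hoxd13* or *Hoxa13*, against 4 zeugopod cells (3.25%), and *Shox2* or *Meox2*, which mark the zeugopod, reached 5 reads in 96 zeugopod (78%) and 5 autopod cells (6.58%). Cells called doubtful below were 5 autopod cells with *Shox2* or *Meox2*, 6 autopod cells with neither *Hoxd13* nor *Hoxa13* (5 of them among the 17 of NXT0143) and 4 zeugopod cells with *Hoxd13* or *Hoxa13*, whereas 25 zeugopod cells with none of the 4 markers were kept. Limb mesenchyme markers (2 of *Prrx1*, *Prrx2*, *Twist1* and *Tbx5*) were found in 63.2% of autopod and 63.4% of zeugopod cells. No cell held the required number of markers of muscle, epithelium, endothelium or macrophages, which in the autopod allows a share of up to 3.95% and in the zeugopod of up to 2.44%, counting error only.

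Positions are those of GENCODE on GRCm38. *Wnt5a* (ENSMUSG00000021994) lies at chr14:28504750-28527448 on the plus strand, *Dkk2* (ENSMUSG00000028031) at chr3:132085292-132180304 on the plus strand, *Sfrp2* (ENSMUSG00000027996) at chr3:83766321-83774316 on the plus strand and *Frzb* (ENSMUSG00000027004) at chr2:80411970-80447625 on the minus strand. *Fzd1*, *Fzd2* and *Fzd7* each have a single exon. Exons of the antisense genes *Gm2670* and *Gm26771* overlap exons of *Wnt5a* and *Sfrp2*, and strand was not given in the sources used here, so reads of these pairs cannot be told apart.

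The 250 bases upstream of the annotated start are shown for 2 antagonists that behaved differently in the cells described below, *Dkk2* (chr3:132085042-132085291, plus strand) and *Sfrp2* (chr3:83766071-83766320, plus strand), from RefSeq on GRCm38.p6, 5′ to 3′. Capitals mark matches on either strand to 1 of 3 motifs, the core promoter element TATAAA, the SOX factor core ACAAT and the TCF/LEF factor core CTTTGA.
Dkk2: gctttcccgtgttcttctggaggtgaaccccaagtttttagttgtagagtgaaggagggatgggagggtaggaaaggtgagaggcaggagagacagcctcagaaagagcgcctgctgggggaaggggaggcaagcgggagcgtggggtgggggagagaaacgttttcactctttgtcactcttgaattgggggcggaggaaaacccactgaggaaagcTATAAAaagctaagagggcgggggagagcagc
Sfrp2: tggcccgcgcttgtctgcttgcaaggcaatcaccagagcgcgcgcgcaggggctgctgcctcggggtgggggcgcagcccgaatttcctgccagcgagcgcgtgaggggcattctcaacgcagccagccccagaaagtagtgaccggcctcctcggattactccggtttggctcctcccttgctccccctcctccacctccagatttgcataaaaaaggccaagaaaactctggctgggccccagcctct
The *Dkk2* window held 1 match, to the core promoter element, beginning 32 bases before the start, and the *Sfrp2* window held none. Upstream windows of the same length held the core promoter element in 13%, the SOX core in 28.3% and the TCF/LEF core in 14% of 27025 genes. Windows were found for 7 of the 10 genes. The letters of the core promoter element were held by 3 of them (*Dkk2*, *Fzd1* and *Ryk*). They began 202 bases before the start in *Fzd1* and, on the reverse strand, 177 in *Ryk*, against 32 in *Dkk2*. The TCF/LEF core was held by 2 (*Frzb* and *Fzd1*) and the SOX core by 0. In the *Frzb* window 229 of the 250 bases lay in annotated exons. Its match, 95 bases before the start, was among them and so not upstream of the annotated gene. A match of letters is a description and not a binding site.

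*Wnt5a*, the ligand, was the member with the highest mean level in the autopod and was detected in most cells of both tissues. Detection in a cell meant 5 reads or more, and levels are the authors' normalized values, which are reads scaled by spike-ins and divided by gene length. In the autopod 70 of 76 cells had *Wnt5a* (92.1%, exact 95% interval 83.6% to 97%), with a median normalized value of 229 over all cells and a highest of 7245. In the zeugopod 85 cells had it (69.1%, 60.1% to 77.1%), with a median of 22.5 and a highest of 2091. Both tissues held cells with 0 reads, 3 in the autopod and 30 in the zeugopod, which sit at the floor of 0.13, so the ranges overlapped over most of their width while the centres lay apart.

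The mean of log2(normalized value + 1) for *Wnt5a* was 7.03 in the autopod (SD between cells 3.45) and 4.14 in the zeugopod (SD 3.40), a difference of 2.89. The difference was 2.45 within run NXT0143, the only run with both tissues, and 2.55 between NXT0072 and NXT0142. A difference was counted at a size of at least 2 over all cells with the same sign in both run comparisons. Among the 4898 genes that reached 5 reads in 25% of cells or more of one tissue or the other, 0.776% passed this rule as higher in the autopod and 1.86% as lower. Of the 10 members, *Wnt5a* passed as higher, at place 10 from the top of the 4898 genes, and 0 passed as lower. At a size of 1, which 5.25% of genes passed as higher and 9% as lower, *Wnt5a* was higher and *Dkk2* lower. The *Wnt5a* difference was 3.31 with the doubtful cells left out, 3.39 without chondrogenic cells, and 3.22 after every cell had been thinned to 500000 reads.

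**Figure D1:**
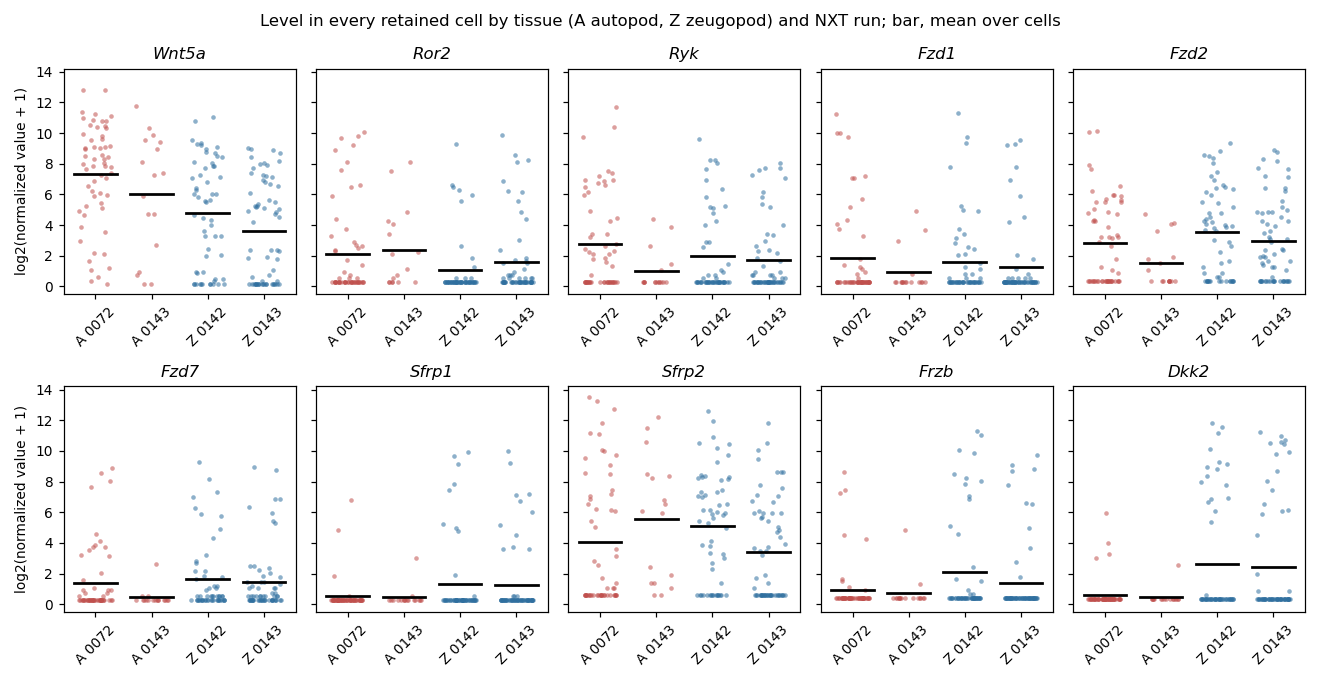
Level of each gene as log2(normalized value + 1) on the vertical axis in every retained cell (points), by tissue and run on the horizontal axis (A, autopod, red; Z, zeugopod, blue); black bars are means over cells. *Wnt5a* had means of 7.32, 6.04, 4.76 and 3.59 from left to right, while *Dkk2* had 0 reads in most cells and at least 5 in 33 zeugopod cells.

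Over all cells the receptors of the tyrosine kinase-like type were detected in a larger share of autopod cells, though *Ryk* was not within NXT0143. Of the 3 Frizzleds 2 were detected in a larger share of zeugopod cells, 1 of them (*Fzd7*) not at a higher threshold. *Ror2*, the receptor tyrosine kinase-like orphan receptor of the non-canonical branch, was detected in 27 of 76 autopod cells (35.5%, 24.9% to 47.3%) and in 24 zeugopod cells (19.5%, 12.9% to 27.6%). Its median among the cells that had it was 20.0 in the autopod and 53.6 in the zeugopod, with highest values of 1069 and 937. Its mean log2 level differed by 0.87, by 0.84 within NXT0143 and by 1.07 between the other runs, the same direction throughout but below the size counted.

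*Ryk*, a catalytically inactive receptor that also binds Wnt5a, was detected in 34 of 76 autopod cells (44.7%) and in 38 zeugopod cells (30.9%). Its direction depended on the run. In NXT0072 30 of 59 autopod cells had it, but in NXT0143 only 4 of 17 did (23.5%), against 21 of 65 zeugopod cells (32.3%). The mean log2 difference was 0.52 over all cells, −0.74 within NXT0143 and 0.79 between the other runs. A single autopod cell at 3310 held 47.2% of the summed normalized value of *Ryk* in that tissue.

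*Fzd2* was the most widely detected of the 3 Frizzleds, in 37 of 76 autopod cells (48.7%, 37% to 60.4%) and 80 zeugopod cells (65%, 55.9% to 73.4%). Its median was 1.23 in the autopod and 6.28 in the zeugopod, and its mean log2 difference was −0.70, or −1.41 within NXT0143 and −0.72 between the other runs. *Fzd7* followed the same direction, with 14 autopod (18.4%) against 42 zeugopod cells (34.1%) and a difference of −0.36 (−1.03 and −0.23 by run), but the shares were 17.1% and 16.3% at a normalized value of at least 5, and the difference was −0.0022 without chondrogenic cells. *Fzd1* was detected in 20 autopod (26.3%) and 27 zeugopod cells (22%) and its difference of 0.23 over all cells was −0.28 within NXT0143 and −0.091 without the doubtful cells. For these receptors no direction reached the size counted, and for *Fzd1* and *Ryk* the sign differed between run comparisons.

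The receptors found in 1 cell differed between the tissues in kind more than in number. At least 1 of the 5 receptors was detected in 62 of 76 autopod cells (81.6%, 71% to 89.5%) and in all but 21 zeugopod cells (82.9%, 75.1% to 89.1%), and the intervals overlapped. Cells with *Ror2* or *Ryk* but none of the 3 Frizzleds numbered 15 in the autopod (19.7%, 11.5% to 30.5%) and 5 in the zeugopod (4.07%, 1.33% to 9.23%). Cells with a Frizzled but neither *Ror2* nor *Ryk* numbered 14 (18.4%, 10.5% to 29%) and 49 (39.8%, 31.1% to 49.1%). This grouping was chosen after the shares of the single genes were seen, and it restates them per cell. Within NXT0143 the shares lay in the same order, 5 of 17 against 4 of 65 cells with *Ror2* or *Ryk* alone, and 4 of 17 against 23 of 65 with a Frizzled alone, with overlapping intervals for both. All 5 receptors together were detected in 1 cell of each tissue.

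**Figure D2:**
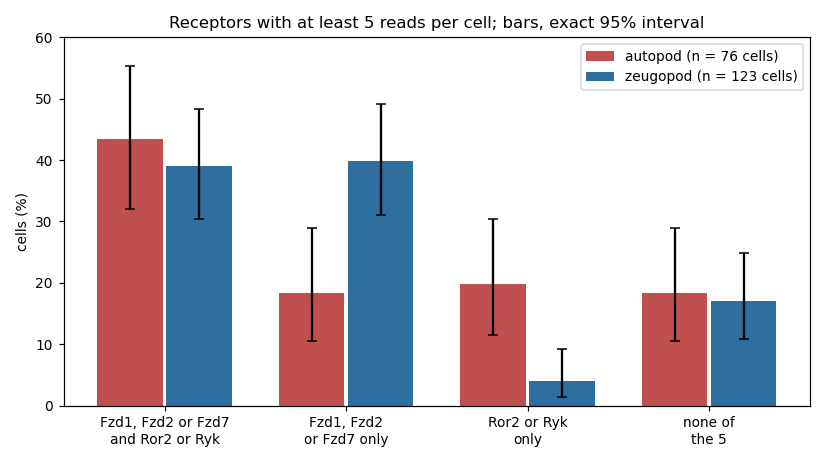
Percentage of cells (vertical axis) by which of the 5 receptors had at least 5 reads (horizontal axis), in autopod (red) and zeugopod cells (blue); error bars are exact 95% binomial intervals for counting error only. *Ror2* or *Ryk* without a Frizzled was seen in 19.7% of autopod and 4.07% of zeugopod cells, and the share with no receptor was 18.4% and 17.1%.

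The antagonists were detected more widely in the zeugopod, apart from *Sfrp2*, whose direction depended on the run. *Sfrp2* had the highest mean level of the 4 in both tissues. It was detected in 39 of 76 autopod cells (51.3%, 39.6% to 63%), with a median of 3.59 and a highest of 11924, and in 72 zeugopod cells (58.5%, 49.3% to 67.4%), with a median of 13.3 and a highest of 6152. Its mean log2 levels of 4.38 and 4.21 gave a difference of 0.17 over all cells. Within NXT0143, however, the autopod was higher by 2.12 (12 of 17 against 32 of 65 cells), and between NXT0072 and NXT0142 the difference was −1.05 (27 of 59 against 40 of 58 cells), and it was −0.097 without the doubtful cells, so no direction between the tissues can be given for *Sfrp2*.

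*Dkk2* was close to all or none. In the autopod 71 of 76 cells had 0 reads and the other 5 had at least 5 reads, with normalized values from 4.85 to 60.6 (6.58% of cells, 2.17% to 14.7%). In the zeugopod 85 cells had 0 reads and 33 had at least 5 (26.8%, 19.2% to 35.6%), and among these 33 the median was 413 and the highest 3614. Summed over cells, *Dkk2* reads were 371 in the autopod and 75941 in the zeugopod, or 1.52 and 191 CPM. The mean log2 difference was −1.94, with −1.94 within NXT0143 and −2.02 between the other runs. It lay just under the size counted, and passed it at −2.01 with the doubtful cells left out, −2.63 without chondrogenic cells, −2.03 after thinning and −2.32 with a pseudocount of 0.1, but was −1.30 with a pseudocount of 10. In order of difference *Dkk2* held place 143 from the bottom of the 4898 genes. It was among these genes only through the zeugopod, where it was higher, so the filter partly sets this place.

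*Frzb*, which was first known as a cartilage-derived Wnt inhibitor, was detected in 7 of 76 autopod cells (9.21%, 3.78% to 18.1%) and 25 zeugopod cells (20.3%, 13.6% to 28.5%). The highest value was 400 in the autopod and 2494 in the zeugopod. *Sfrp1* was detected in 4 autopod (5.26%, 1.45% to 12.9%) and 21 zeugopod cells (17.1%, 10.9% to 24.9%), and its reads summed to 95 over all autopod cells, 1 of which held 67.2% of the summed normalized value, and to 27023 over the zeugopod cells. Their mean log2 differences were −0.83 and −0.79, with the same sign in both run comparisons. *Sfrp1* and *Frzb* were below the filter of 25% of cells in both tissues, so 8 of the 10 members were among the 4898 genes.

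At least 1 antagonist was detected in 44 of 76 autopod cells (57.9%, 46% to 69.1%) and in all but 22 zeugopod cells (82.1%, 74.2% to 88.4%). Within NXT0143 the shares were 13 of 17 and 51 of 65 (76.5% and 78.5%), so the gap between the tissues came with the run pair NXT0072 and NXT0142 (31 of 59 against 50 of 58). After every cell had been thinned to 500000 reads, which left out 4 shallower cells of each tissue, the share of cells with each of the 10 members lay in the same order between the tissues as before. It was then 87.5% and 62.2% for *Wnt5a*, 30.6% and 14.3% for *Ror2*, 36.1% and 46.2% for *Fzd2*, and 2.78% and 26.1% for *Dkk2* in autopod and zeugopod. In the autopod 29 cells had *Sfrp2* as their only antagonist and 32 had none. In the zeugopod 34 cells had *Sfrp2* alone, 13 had *Sfrp2* with *Dkk2*, 12 had *Dkk2* alone and 11 had *Sfrp2* with *Frzb*.

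**Figure D3:**
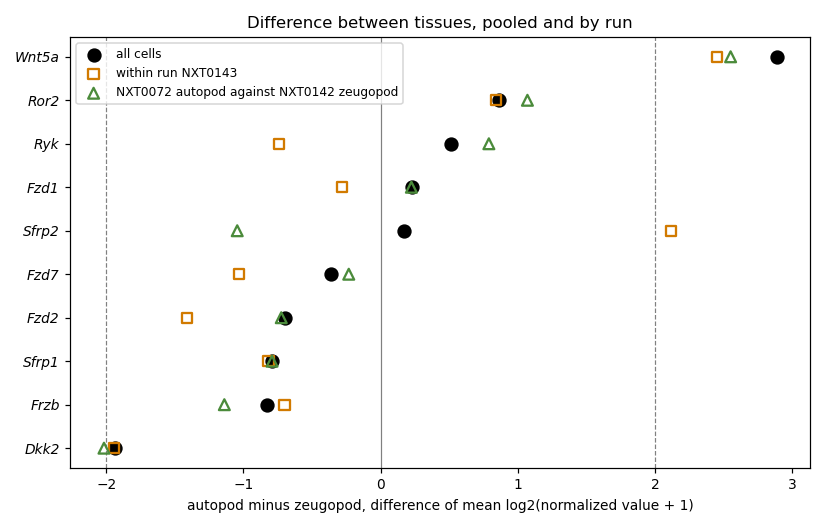
Autopod minus zeugopod difference of mean log2(normalized value + 1) (horizontal axis) for each gene (vertical axis), over all cells (black), within run NXT0143 (orange squares) and between NXT0072 and NXT0142 (green triangles); dashed lines mark the size of 2 that was counted. *Wnt5a* lay beyond 2 in all 3, *Dkk2* at about −2 in all 3, and the marks of *Sfrp2* lay on both sides of 0.

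Over all 4898 genes the median difference was −0.12, and it was 0.18 within NXT0143 and −0.34 between the other runs. The median of the 10 members was −0.10, with 5 higher and 5 lower. By mean log2 level per length, *Wnt5a* and then *Sfrp2* stood first in the autopod, where the next was *Fzd2* at 2.52, and neither overlapped its neighbour below in the range over runs. In the zeugopod *Sfrp2* (4.21) and *Wnt5a* (4.14) did not differ beyond their range over runs, *Fzd2* (3.22) and *Dkk2* (2.51) followed, and the other 6 lay between 1.84 and 1.30 with the ranges of all neighbours overlapping.

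Cells of the cartilage lineage were then compared with the rest, because the antagonists have known roles around condensing cartilage. A cell held the chondrogenic set when it had at least 5 reads of 3 or more of *Sox9*, *Col2a1*, *Acan*, *Col9a1* and *Matn1*. This was so in 38 zeugopod (30.9%) and 35 autopod cells (46.1%). In the autopod 1 of the 5 markers had 0 reads in all cells, so the set was not quite alike in the tissues. In the zeugopod 1 marker likewise had 0 reads in all 58 cells of NXT0142. In the zeugopod *Dkk2* was nearly absent from cells with the set, and *Frzb* was detected in them more often. *Dkk2* had at least 5 reads in 1 of 38 cells with the set (2.63%, 0.0666% to 13.8%) and in 32 of 85 cells without it (37.6%, 27.4% to 48.8%), and its highest value was 92.4 with the set and 3614 without. The mean log2 level was 0.54 with the set and 3.39 without, a difference of −2.85 that was −3.35 in NXT0142 and −2.39 in NXT0143. Of the other genes 1.27% were lower by at least 2 in these cells and 0.735% higher, and *Dkk2* held place 17 from the bottom of 4895 genes. Of the 10 members 1 was lower, *Dkk2*, and 0 were higher.

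*Frzb* was detected in 14 of the 38 zeugopod cells with the chondrogenic set (36.8%, 21.8% to 54%) and in 11 of the 85 without it (12.9%, 6.64% to 22%). Its mean log2 level was 2.89 against 1.22, a difference of 1.67 with 1.66 in NXT0142 and 1.63 in NXT0143, under the size counted. Of the 25 zeugopod cells with *Frzb* and the 33 with *Dkk2*, 2 had both. That is 8% of the *Frzb* cells, beside 26.8% of all zeugopod cells with *Dkk2*. Their rho was −0.14, with −0.01 in NXT0142 and −0.28 in NXT0143, short of the −0.3 counted below. *Sfrp2* was spread over both kinds of cell, in 25 of 38 (65.8%) and 47 of 85 (55.3%), as was *Wnt5a* in 25 of 38 (65.8%) and 60 of 85 (70.6%), with overlapping intervals. The median number of genes with at least 1 read was 3870 in cells with the set and 4051 in the others, and the median difference over all other genes was −0.21.

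**Figure D4:**
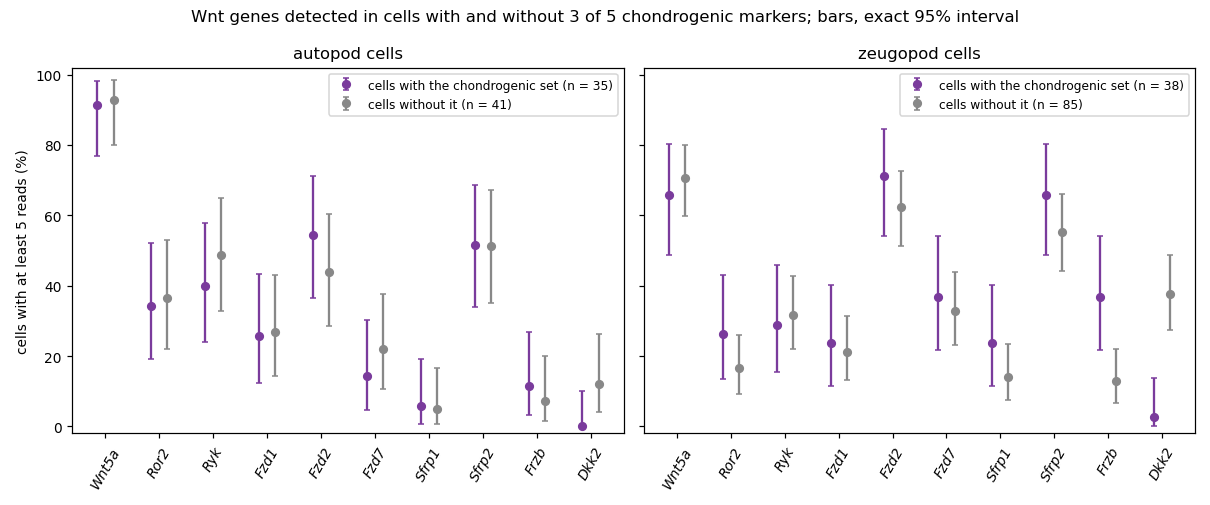
Percentage of cells with at least 5 reads of each gene (vertical axis) among cells with (purple) and without (grey) 3 of 5 chondrogenic markers, in the autopod (left) and zeugopod (right); bars are exact 95% binomial intervals for counting error only. In the zeugopod the intervals lay apart for *Dkk2* (2.63% against 37.6%), overlapped narrowly for *Frzb* (36.8% against 12.9%) and overlapped for the other genes. In the autopod 1 of the 5 markers had 0 reads in all cells, as had 1 in the zeugopod cells of NXT0142.

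In the autopod 0 of the 35 cells with the chondrogenic set had *Dkk2*, which allows a share of up to 8.57%, and 5 of the 41 without it did (12.2%). *Frzb* was detected in 4 of 35 and 3 of 41. *Wnt5a* was detected in nearly all cells of both kinds, 32 of 35 and 38 of 41, at a median value of 165 with the set and 258 without. Its mean log2 level was lower with the set by a difference of −1.30 (−1.39 in NXT0072 and −0.91 in NXT0143), beside a median of −0.55 over the other genes, of which 3.51% were lower by at least 2 and 0.306% higher. Of the members 0 passed that size in either direction.

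The interdigit set, at least 2 of *Aldh1a2*, *Msx2* and *Bmp7* at 5 reads, was held by 17 autopod cells and 1 zeugopod cell. *Wnt5a* was higher in the 17 cells, with a median value of 548 against 155 in the other 59 and a mean log2 difference of 2.25 (2.61 in NXT0072 and 2.34 in NXT0143). The difference was 1.52 on the CPM scale and 1.63 with the doubtful cells left out. Cells with the set had more genes detected, a median of 4504 against 3414, and 11.6% of all other genes were higher by at least 2 in them while 0.0613% were lower. The 1 of 10 members that passed is near that share. *Fzd1* was detected in 7 of 17 and 13 of 59 cells, with a difference of 1.51, and the interdigit cells held 0 of the 5 autopod cells with *Dkk2*.

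The tendon set, at least 2 of *Scx*, *Tnmd* and *Tnc*, was held by 17 zeugopod and 0 autopod cells. In the autopod 1 of the 3 markers had 0 reads in all cells. None of the 10 members differed by 2 or more with it, while 1.43% of the other genes were higher and 0.266% lower. *Dkk2* was detected in 5 of 17 cells with the set (29.4%) and 28 cells without it (26.4%), and *Sfrp2* in 10 of 17 (58.8%) and 62 without (58.5%).

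Ligand and receptors were next looked for in the same cell. Of the 70 autopod cells with *Wnt5a*, 58 had at least 1 of the 5 receptors (82.9%, 72% to 90.8%), and 39 had 2 or more. Of the 85 zeugopod cells with *Wnt5a*, 72 had a receptor (84.7%, 75.3% to 91.6%), and 55 had 2 or more. Among zeugopod cells without *Wnt5a* a receptor was found in 30 of 38 (78.9%, 62.7% to 90.4%), which overlaps the share with the ligand, and in the autopod only 6 cells lacked *Wnt5a*. *Fzd7* was the receptor with the widest gap, in 34 of 85 zeugopod cells with *Wnt5a* (40%, 29.5% to 51.2%) and 8 of 38 without (21.1%, 9.55% to 37.3%), with overlapping intervals. *Ror2* was found in 26 of 70 autopod cells with *Wnt5a* and in 16 of 85 zeugopod cells with it.

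Across cells few pairs of members were related beyond the size counted. Spearman's rho of the normalized values was computed for the 45 pairs in each tissue. It is a description without a p, since cells of 1 pool are not independent samples. A pair was counted at 0.3 or more with the same sign in both runs, which 11.5% of all pairs of genes detected in 25% of autopod cells and 1.59% of such pairs in the zeugopod reached. Among the members 2 of 45 pairs (4.44%) were counted in the autopod and 0 in the zeugopod. For the 6 members that themselves reached 25% of cells in a tissue, which is the like comparison, 2 of 15 pairs (13.3%) were counted in the autopod, near the share of all pairs, and 0 of 15 in the zeugopod. *Ryk* with *Fzd1* had rho of 0.40 over 76 autopod cells (0.41 in NXT0072 and 0.20 in NXT0143), and *Wnt5a* with *Ryk* had 0.36 (0.33 and 0.46). Both fell below 0.3 given the number of genes detected per cell, to 0.28 and 0.16. That number was itself related to *Wnt5a* (rho 0.50) and *Ryk* (0.49) in the autopod. At −0.3 or less 0 pairs were found in either tissue, where 0.0307% and 0.0104% of all pairs were.

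**Figure D5:**
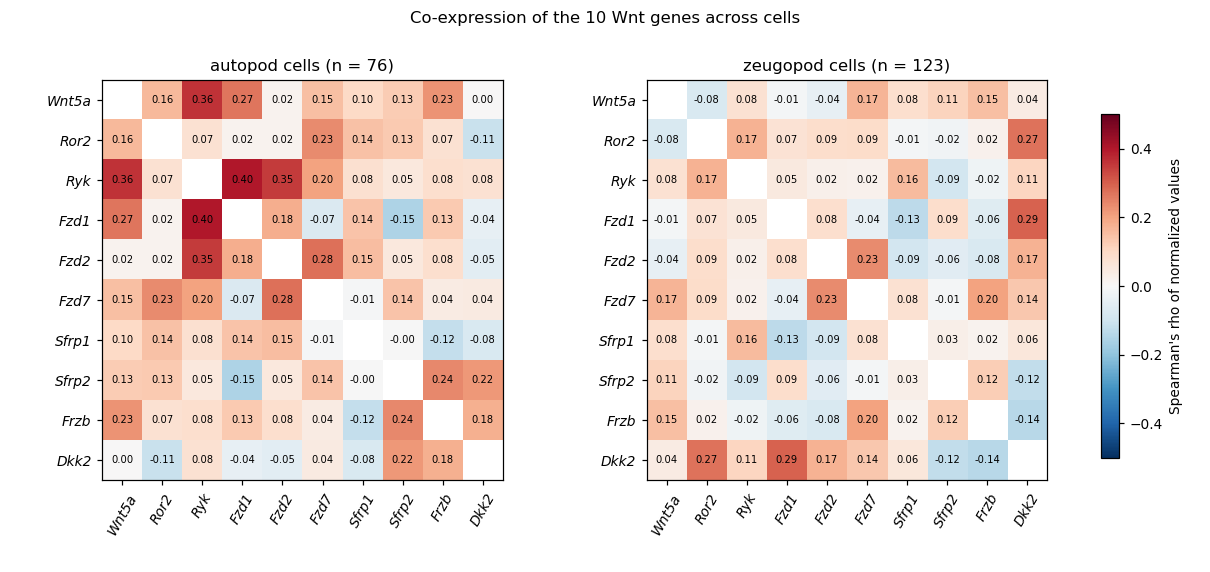
Spearman's rho of normalized values (colour and printed number) for each pair of genes (both axes), across 76 autopod cells (left) and all zeugopod cells (right); the diagonal is left blank. Autopod values lay between −0.15 and 0.40 and zeugopod values between −0.14 and 0.29, and *Ryk* held the 3 highest values of the autopod.

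*Fzd2* and *Fzd7*, closely related Frizzleds, had positive rho in both tissues, 0.28 in the autopod and 0.23 in the zeugopod. On thinned CPM the values were 0.25 and 0.09, and as Pearson's r of log2 values 0.21 and 0.02. Of the 42 zeugopod cells with *Fzd7*, 32 had *Fzd2* (76.2%), beside 65% of all zeugopod cells. Reads were mapped uniquely, so reads that both genes could have given were not counted for either. In the zeugopod the pairs with the highest rho were *Fzd1* with *Dkk2* (0.29, with 0.48 in NXT0142 and 0.11 in NXT0143, but −0.0085 on thinned CPM and −0.025 as Pearson's r of log2 values) and *Ror2* with *Dkk2* (0.27, with 0.33 and 0.23). The median over the 15 pairs of members at 25% of cells was 0.13 in the autopod and 0.04 in the zeugopod, beside 0.15 and 0.08 over all pairs of genes at 25% of cells. A rho that rests on a gene present in few cells, as for *Sfrp1*, *Frzb* and *Dkk2* in the autopod, is set by those cells.

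Because the cells were sorted for *Hoxd11* activity, the members were also set against *Hoxd9* to *Hoxd13*. In the autopod *Wnt5a* had rho of 0.40 with *Hoxd11* (0.39 and 0.46 by run) and of 0.37 with *Hoxd13* (0.33 and 0.39), which on the CPM scale were 0.28 and 0.18. *Ryk* had 0.37 with *Hoxd10* and 0.36 with *Hoxd13*, and −0.01 with *Hoxd13* on the CPM scale. In all, 6 of 50 autopod pairs were counted, and 4 of the 24 in which both genes reached 25% of cells (16.7%), beside the 11.5% of all such gene pairs. In the zeugopod 0 of 50 were counted, where values ran from −0.21 to 0.21.

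For each member the genes with the most similar pattern were found by the mean rho over the 4 groups of tissue and run, among the 4898 genes. *Wnt5a* was followed most closely by *Ptpn9*, a protein tyrosine phosphatase (mean rho 0.45, from 0.31 to 0.64), then by *Nup93*, a nuclear pore protein (0.40), and *Ssbp3*, a cofactor of LIM homeodomain factors (0.40). *Ptpn9* was detected in 28 of 85 zeugopod cells with *Wnt5a* and in 4 of 38 without it. *Ctnnb1*, which encodes β-catenin, came first for *Ror2* (0.39, from 0.31 to 0.54), followed by *Zfp61* (0.38) and *Vps29* (0.37). Given the number of genes detected, however, *Ctnnb1* (0.30) lay below *Zfp61* (0.31) and *Vps29* (0.34). *Ctnnb1* was detected in 22 of 24 zeugopod cells with *Ror2* and 73 of 99 without. Each of these genes was chosen by its rho in these same cells, so such shares restate that choice. The mean rho of the first gene for the other members ran from 0.29 for *Sfrp1* to 0.43 for *Fzd7*.

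*Osr1*, a transcription factor of limb connective tissue, came first for *Dkk2* (mean rho 0.35). It had rho of 0.56 in NXT0142 and 0.55 in NXT0143 across zeugopod cells, 0.41 in NXT0072 and −0.14 in the 17 autopod cells of NXT0143, of which 1 had *Dkk2*. In the zeugopod 27 of the 33 cells with *Dkk2* had *Osr1* (81.8%), against 20 of the 90 cells without *Dkk2* (22.2%). *Osr1* was chosen by its rho with *Dkk2* in these same cells, so these shares restate that choice. On the CPM scale *Abhd17b*, the third gene for *Dkk2*, had a higher mean rho than *Osr1* (0.36 against 0.32). Of the 33 zeugopod cells with *Dkk2*, 32 lacked the chondrogenic set.

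The other genes of the pathway were counted by the same rule, in lists of textbook membership. Of 18 non-canonical and planar cell polarity genes 6 passed the filter, and *Prickle1*, a cytoplasmic core component of planar cell polarity, passed as higher in the autopod with a difference of 2.46 (3.60 within NXT0143 and 1.94 between the other runs), detected in 38 autopod and 20 zeugopod cells. *Vangl2*, its membrane partner, was detected in 24 autopod and 32 zeugopod cells, with a difference of 0.72. *Dvl3*, which relays signals of both branches, had −2.84 over all cells but 0.63 within NXT0143 and −3.96 between the other runs, so that its difference went with the run.

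Of 20 canonical receptors and mediators 10 passed the filter and 1 passed as higher, *Lgr4*, a receptor for R-spondins (2.69, with 3.57 and 2.46 by run), detected in 68 autopod and 79 zeugopod cells. β-catenin itself, *Ctnnb1*, differed by 0.88 over all cells and by −0.58 within NXT0143. *Tcf7l2* differed by 0.43, with 2.11 within NXT0143 and 0.31 between the other runs. *Gsk3b* differed by −0.31, with 0.78 within NXT0143 and −0.83 between the other runs. Among 10 canonical feedback targets 3 passed the filter and 0 passed the rule. *Axin2* was detected in 20 autopod and 12 zeugopod cells with a difference of 0.75 that was 0.04 within NXT0143. *Znrf3* was detected in 24 autopod and 61 zeugopod cells, with −1.17 over all cells but 0.75 within NXT0143. *Lef1* had 0.62 over all cells and −0.04 within NXT0143. *Nkd2* had −0.07, with −0.30 within NXT0143 and 0.05 between the other runs. Of 11 other antagonists 0 passed the filter and 0 the rule. *Wif1* was at −0.43 (−1.25 within NXT0143 and 0.12 between the other runs). *Sostdc1* was at −0.60 (0.07 and −0.66), so for both the sign differed between run comparisons. *Dkk3* was at 0.51 (0.68 and 0.47), detected in 9 autopod and 5 zeugopod cells. Of 24 other ligands and agonists 2 passed the filter and 0 the rule. *Rspo3*, an R-spondin, was detected in 5 autopod and 38 zeugopod cells with a difference of −1.84 (−1.21 and −2.56). *Wls*, needed for Wnt secretion, differed by 0.42, with 0.94 within NXT0143 and −0.28 between the other runs. *Porcn* differed by 0.66 (0.07 and 0.82 by run), detected in 7 autopod and 6 zeugopod cells. *Wnt5b* and *Wnt11*, other ligands of the non-canonical branch, were detected in 7 and 1 autopod and in 13 and 19 zeugopod cells, so *Wnt5a* was the most widely detected of the Wnt ligands counted, while *Wnt6* was not among the genes counted here.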

How the data were processed

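The authors mapped 75-base reads uniquely to mm10 with Bowtie2 in local mode (version not given in the sources used here) and deposited counts, the raw reads on each GRCm38 gene and on 92 spike-ins in 225 cells. They also deposited a normalized signal for 199 cells, 76 autopod and 123 zeugopod: counts divided by spike-in size factors centred within each run (scran), plus 1 read, divided by gene length in kb. Gene lengths were taken from this signal itself, and the size factor of each cell from 300 genes in the counts and the signal. With these the counts gave the signal to within 1 scaled read for at least 99.4% of genes in every cell. Because both were fitted and genes with 0 reads were included, the match is no independent check. The spike-in rows of the deposited counts are in another order of cells than the gene rows and were not used. The size factors behind the normalized signal followed, cell by cell, the spike-in reads in the study's quality table. Columns not mapped to a sample numbered 0. Doublets were not called.

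From these files differences of mean log2(signal + 1), shares of cells with at least 5 reads with exact (Clopper-Pearson) 95% intervals, which cover counting error only since reads without molecular identifiers are not independent molecules, and Spearman's rho were computed (Python 3.11.15, numpy 2.4.6, pandas 2.3.3, scipy 1.17.1). Calls needed a size of 2, or rho of 0.3, and the same sign in both run comparisons, set beside the share of all genes passing. Calculations were tested on simulated data. Alternatives were CPM, pseudocounts of 0.1 and 10, other thresholds, thinning to 500000 reads (seed 42), runs alone and partial correlation; leaving out the doubtful cells, cells with a size factor below 0.2 and the highest cell was added after seeing the data. The 10 members were named, with pathway genes past the rule or among the 3 highest of each list. *Hoxd* genes, cell markers and some of the 3 nearest genes of each member were named too. *Vangl2*, *Axin2*, *Wnt5b* and *Wnt11* were added after their values were seen. The blood markers were void, with 1 of 4 in the counts. Members and lists were chosen with earlier results of these data known.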

Additional observations from a re-analysis of the deposited data

Results flagged for a closer look

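Of the 26 cells that the authors left out, 20 of them from the autopod, 4 had at least 5 reads of *Wnt5a* (15.4%, exact 95% interval 4.36% to 34.9%) and 4 had at least 5 reads of *Sfrp2* (15.4%). Both shares lie above the 11.5% that a count of 0 would allow in 26 cells, a limit that lies within the interval of each, and these cells enter no comparison. The 4 cells with *Wnt5a* were all from the autopod, as were 3 of the 4 with *Sfrp2*. The reads summed to 185 for *Wnt5a* and 152 for *Sfrp2*, and 23 of the 26 cells held fewer reads on genes than the shallowest retained cell.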

How the results depend on the processing

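No paired analysis was possible because replicate numbers only name single cells and tie no cell of one tissue to a cell of the other. *Wnt5a* stayed above 2 in each of the 10 alternatives, from 2.09 with a pseudocount of 10 to 3.43 with one of 0.1. Within NXT0143 alone 2 members were higher by 2 or more, *Wnt5a* and *Sfrp2*. The count of members lower in the autopod was 1, *Dkk2*, with a pseudocount of 0.1, between NXT0072 and NXT0142, on thinned CPM, at a size of 1, without chondrogenic cells and without the doubtful cells, and 0 otherwise. *Sfrp2* was at −0.10 without the doubtful cells and at −1.05 between NXT0072 and NXT0142, against 0.17 over all cells. The share of cells with *Wnt5a* was 82.4% in autopod cells of NXT0143 and 56.9% of zeugopod cells at a normalized value of 5. At 1 read 91.8% of autopod and 95.7% of zeugopod cells with *Wnt5a* had a receptor. Pairs at rho of 0.3 or more in the autopod numbered 5 in NXT0072 and 9 in NXT0143 alone, and 0 both given genes detected and on thinned CPM; in the zeugopod they numbered 3 in NXT0142 and 1 in NXT0143. With 1 more chondrogenic marker required 1 member was higher in each tissue, and in NXT0143 alone 1 was lower in the autopod. Members higher with the interdigit set numbered 0 on the CPM scale and 0 without the doubtful cells, 2 in NXT0072 and 3 with 1 more marker. Of the 30 nearest genes 16 were kept with CPM and 14 given genes detected. *Dkk2* stayed lower in chondrogenic zeugopod cells under the 7 alternatives, from −4.001 to −2.35. Each tissue is 1 pool, 17 autopod cells share a run with zeugopod cells, and dissection and sorting cannot be told apart from the tissue. The causes were not tested.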
